A study of Mus musculus with 6 samples.

Results

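H3K4me3 regions at transcription end sites are the regions of one mouse oocyte library that the authors' annotation assigned to the end of a transcript (transcription termination site, TTS) and to no promoter. They were taken as every region of the first H3K4me3 replicate whose annotation class is TTS, and they numbered 295 of the 8129 regions in that list (3.63%). Together with the lists of the second H3K4me3 replicate and of the 2 TAF4b replicates, 10543 features were available. The class rests on position alone, so position relative to a TTS is how the regions were chosen and not a result. A transcript said below to end at a region is the one that its TTS annotation names. TTS coordinates were not available here, and how near a TTS the annotation requires is not stated, so the end itself may lie outside the region.

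The libraries were CUT&RUN profiles, in which an antibody directs a nuclease to its target in cells or nuclei and the released DNA is sequenced. All came from GFP-positive oocytes of female embryos at E16.5, labelled as strain C57BL/6 and genotype Taf4b-wildtype, and the parents carried 2 copies of an Oct4-EGFP transgene from a B6;129S4 stock. Each of H3K4me3, TAF4b and the IgG control had 2 libraries, and the IgG libraries were not used here, so the values have no background beside them. The cells are those sorted as live and GFP-positive against a gonad without the transgene, and the labels do not say how many embryos were pooled or whether replicates came from separate animals.

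H3K4me3 is trimethylation of lysine 4 on histone H3, a mark placed mainly by the SET1 and MLL complexes around transcription start sites (TSSs) of active and poised genes. In germ cells that enter meiosis, the methyltransferase PRDM9 also places it at recombination hotspots, whose positions were not analysed here. A TTS is where a transcript is annotated to end, and in gene-dense parts of the genome the end of one transcript can lie next to, or inside, the promoter of another. TAF4b belongs to TFIID, a multi-subunit general factor that assembles at core promoters and is known for its part in oocyte development.

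The first H3K4me3 list covered 5438 kb and the second held 320 regions covering 174.9 kb, of which 3 were in the TTS class (0.938%). Of the TAF4b peaks, 2 of 983 in replicate 1 and 0 of 1111 in replicate 2 were in this class. The lists give no read totals, so depth is unknown, and the score scaling is not stated, so scores are compared only within a list. Regions of one list are not replicates of a condition. No test was therefore made between classes, and the 95% intervals below, exact binomial for shares and order-statistic for medians, cover counting error only. The files name transcripts by Ensembl identifier without gene symbols, so regions are given by position on GRCm39.

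Most of these regions were not centred near any TSS, and those that were lay downstream of it. Of the 295 regions, 94 had a TSS no farther than 1 kb from the centre (31.9%, 26.6 to 37.5%), where the whole list had 58.6%. All 94 lay downstream, between 107 and 1000 bp from the TSS. None of the 295 was centred between -1000 and 100 bp. Of the 3092 regions of the list centred there, 3090 were in the promoter class and 2 in introns. Promoter regions whose annotated transcript was also the nearest one were centred from -998 to 100 bp, so the annotation leaves almost no other class in that interval, and the low share near a TSS is in part set by it. The nearest upstream position was -1039 bp.

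Distances of all members were spread over a wide range. Downstream of the nearest TSS were 251 regions, the farthest at 43633 bp, and upstream were 44, the farthest at -126020 bp. The median over all 295 was 1139 bp downstream, with quartiles of 275.5 and 3342 bp. There were 19 regions at 101 to 200 bp, 16 at 201 to 300 bp, 46 between 1 and 2 kb and 54 between 2 and 5 kb. Per 100 bp the number fell from 19 and 16 in the first of these bins to 4.6 between 1 and 2 kb and 1.8 between 2 and 5 kb. Another 33 lay between 5 and 10 kb downstream and 24 farther.

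**Figure D1:**
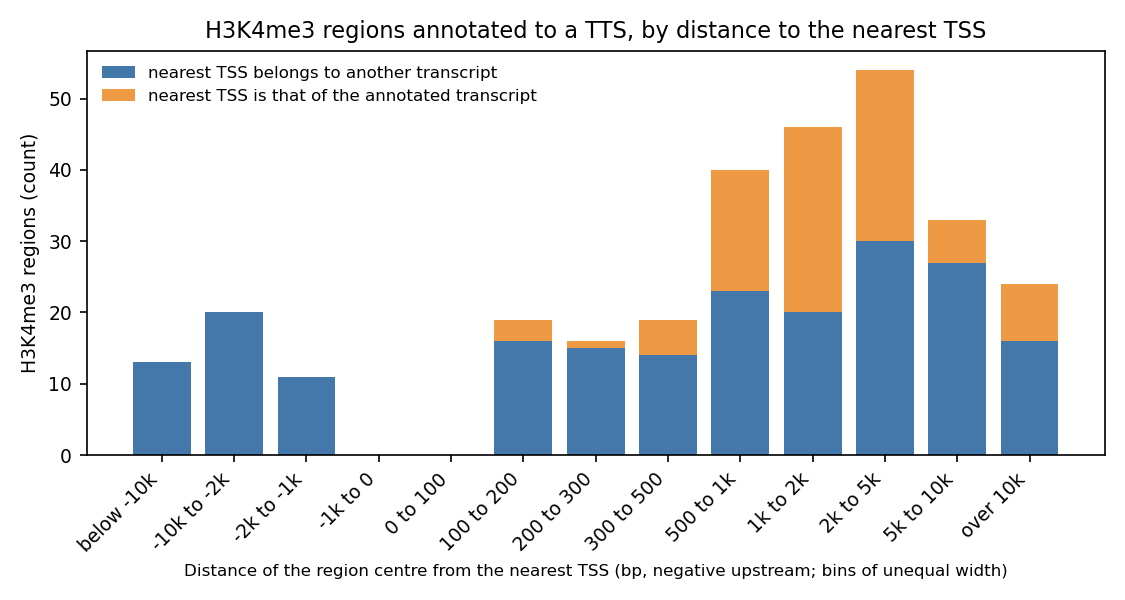
Counts of the 295 H3K4me3 regions at a TTS (vertical axis) by distance of the region centre from the nearest TSS (horizontal axis, bins of unequal width in bp), stacked by whether that TSS belongs to the annotated transcript. The bins from -1000 to 100 bp hold no TTS region, and the 44 upstream regions all have another transcript's TSS nearest.

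The nearest TSS was usually that of another transcript identifier. For 90 regions the transcript that ends there was also the nearest promoter (30.5%, 25.3 to 36.1%), against 30.2% of all regions. Intergenic regions name no transcript and cannot match, and without them the share was 35.1% of 6985. It was 26.1% in introns and 54.4% in exons. For 205 it was not. Another identifier can be a neighbouring gene or another transcript of the same gene, which the files do not separate. The 295 regions named 295 different TTS transcripts and 295 different nearest promoters, so no transcript was counted more than once in either role.

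Regions near the TSS of another transcript are those that may be promoters of neighbouring transcripts. There were 68 of them within 1 kb, at a median of 309.5 bp downstream (275 to 440 bp). In 32 of these 68 (47.1%, 34.8 to 59.5%) the region was wide enough to contain that TSS. The share of all TTS regions that contained their nearest TSS was 12.2% (36 of 295). That of all regions was 46.2%, but these include 3364 regions beyond 1 kb, of which 1 contained it. Among regions centred 101 to 1000 bp downstream of a TSS, 36 of 94 TTS regions contained their nearest TSS (38.3%). The share at this distance was 43.0% in introns, 69.9% in exons and 78.5% in the promoter class. On chromosome 17 at 47998283 to 47999488, a 1205 bp region at the end of ENSMUST00000113300 was centred 108 bp downstream of the TSS of ENSMUST00000113301 and contained it. Its score was 111.4.

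Another 26 regions lay within 1 kb of the TSS of the very transcript that their TTS annotation names. Their median distance was 717.5 bp (491 to 905 bp), and 4 of them contained the TSS. The region nearest to any TSS was of this kind, on chromosome 1 at 170891864 to 170892364, centred 107 bp downstream of the start of ENSMUST00001239510, with the minimum width of 500 bp and a score of 37.1. The next of this kind, on chromosome 1 at 170082697 to 170083385, was centred 108 bp from the start of ENSMUST00000180900 and had a score of 39.4.

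Beyond 1 kb of a TSS were 201 regions in 3 arrangements. In 64 the annotated transcript was still the nearest promoter, at a median of 2265 bp and at most 27081 bp from its start. In 93 the nearest TSS was that of another transcript upstream of the region, at a median of 4210 bp. In 44 the region lay upstream of the nearest TSS, at a median of -5223 bp. The 3 farthest members were all of the last kind. They lay -126020 bp from ENSMUST00000175257 on chromosome 12 (36739867 to 36740501, score 65), -65956 bp from ENSMUST00000205873 on chromosome 7 (71677472 to 71677972, score 34.8) and -58938 bp from ENSMUST00000220612 on chromosome 12 (26141127 to 26141627, score 27.8).

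In score and width these regions were like the list as a whole. The median score was 41.8 (39.4 to 46.4) for the 295 regions and 41.8 (41.8 to 44.1) for all 8129. Member scores ran from 25.5 to 157.8, with quartiles of 32.5 and 55.7, while the highest score in the list was 693.7. The minimum width of 500 bp was held by 162 of the 295 (54.9%, 49.0 to 60.7%), against 53.0% of all regions. Widths of 751 to 1000 bp were found in 48 regions (16.3%), of 1001 to 1500 bp in 17 (5.76%) and above that in 6 (2.03%), where the list had 15.0%, 8.14% and 2.08%.

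Width and score went together. The whole list was divided into 4 equal groups of rising score. Of the members in the lowest group, 1 of 83 was wider than 500 bp, then 14 of 66, 60 of 86 and 58 of 60 in the highest. The members' median widths in these groups were 500, 500, 636 and 903 bp. The whole list was alike, with median widths of 500, 500, 636 and 929 bp. The minimum width was held by 98.8%, 78.8%, 30.2% and 3.33% of the members and by 98.5%, 81.7%, 29.3% and 2.51% of all regions.

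Closeness to a TSS alone did not come with a higher score, but containing the TSS did. Regions within 1 kb had a median score of 37.1 (34.8 to 41.8, n = 94) and regions beyond 1 kb one of 44.1 (41.8 to 48.7, n = 201). The 36 regions that contained the nearest TSS had a median of 53.4 (41.8 to 62.6), and the other 58 within 1 kb one of 34.8 (32.5 to 37.1). Of those 58, 46 had the minimum width (79.3%), against 14 of the 36 (38.9%). A wider region contains a nearby TSS more easily, and wider regions score higher, so these 2 contrasts are not independent.

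**Figure D2:**
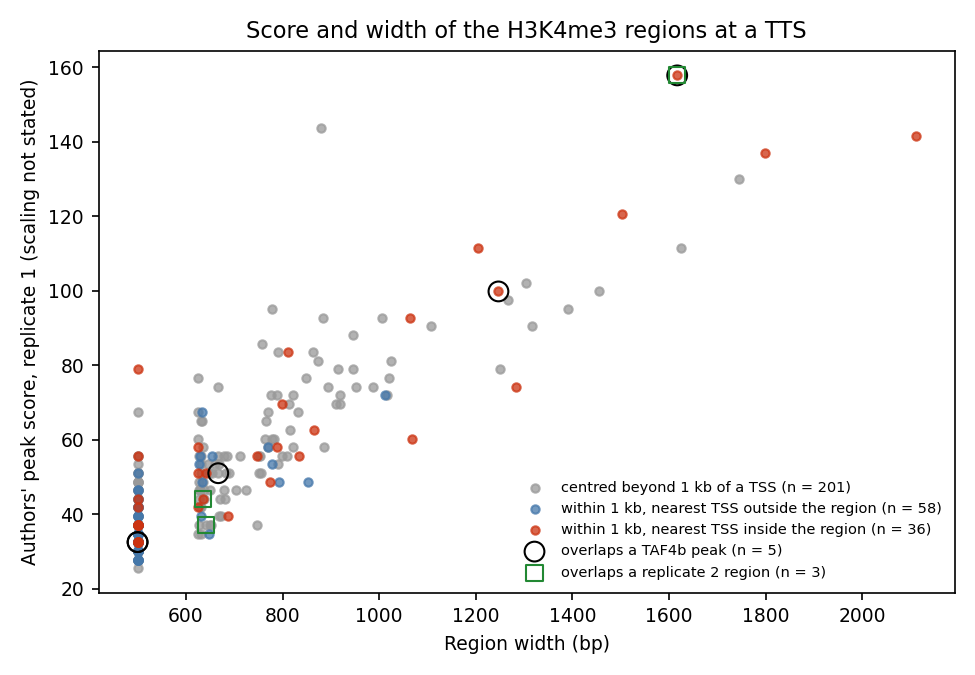
Authors' peak score in H3K4me3 replicate 1 (vertical axis, scaling not stated) against region width in bp (horizontal axis) for the 295 regions, coloured by position relative to the nearest TSS. Open circles mark the 5 regions with a TAF4b peak and open squares the 3 found in replicate 2. The column of points at 500 bp is the minimum width, and the widest regions have the highest scores with an exception of 880 bp at 143.8.

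The strongest member lay on chromosome 4 at 119150562 to 119152179, at the end of ENSMUST00000195276, with a score of 157.8 and a width of 1617 bp. It was centred 307 bp downstream of the TSS of ENSMUST00000142884 and contained that TSS. The second, on chromosome 1 at 88188029 to 88188909, had a score of 143.8 in a width of 880 bp. Its centre was 2989 bp from the start of ENSMUST00000135948, the transcript of its TTS annotation, so no other promoter was nearer.

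Further strong members were of both kinds. The widest of all, 2111 bp on chromosome 12 at 52649662 to 52651773, had a score of 141.5 and contained the TSS of ENSMUST00000240517 at 146 bp from its centre. On chromosome 16 at 11070804 to 11072602, a region of 1798 bp and score 136.9 contained the TSS of ENSMUST00000080030 at 370 bp. A region of 1744 bp and score 129.9 on chromosome 13 at 72778292 to 72780036 lay -1040 bp from ENSMUST00000163393, just outside the 1 kb window and the promoter class. Of the 11 members with the highest scores, 2 of them tied at 99.8, 6 contained the nearest TSS and 5 were centred beyond 1 kb. The latter also included regions 2139 bp downstream on chromosome 14 (30959000 to 30960625, score 111.4), 6946 bp downstream on chromosome 6 (87088089 to 87089393, score 102.1) and 4354 bp downstream on chromosome 8 (71320945 to 71322401, score 99.8).

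The share of members near a TSS did not rise with score as it did in the list. It was 37.3% (27.0 to 48.7%), 39.4% (27.6 to 52.2%), 26.7% (17.8 to 37.4%) and 23.3% (13.4 to 36.0%) over the 4 groups of rising score. For all regions it was 48.0%, 54.6%, 59.2% and 72.6%. All 3559 promoter regions among them lay within 1 kb, with a median score of 46.4 against 41.8 for the TTS regions. The list without the promoter class was not divided in this way. The intervals of the members' lowest and highest groups overlap, so a fall is not established. In the highest group, 14 of 60 members and 1476 of 2032 regions were near a TSS.

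**Figure D3:**
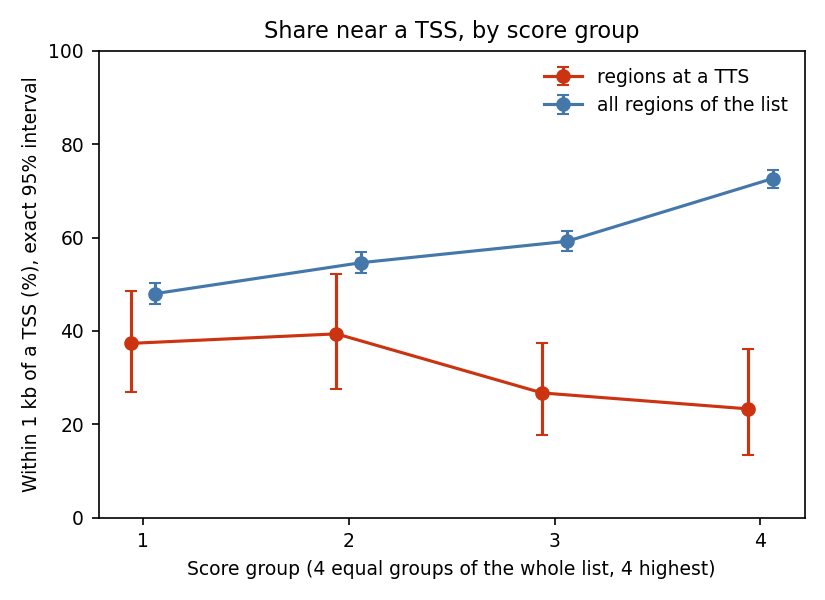
Share of regions centred within 1 kb of a TSS (vertical axis, %, exact 95% interval) in 4 equal groups of the whole list by score (horizontal axis, 4 highest), for the regions at a TTS and for all regions. The share of all regions goes from 48.0% to 72.6%, that of the TTS regions from 37.3% to 23.3%. All regions include the promoter class, whose 3559 regions all lie within 1 kb.

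Few of these regions were called in the second H3K4me3 library. The count was 3 of 295 (1.02%, 0.210 to 2.94%), against 2.84% of all regions, a share inside the members' interval. It was 1.27% in introns, 1.76% in exons, 0.612% between genes and 5.00% in the promoter class. The second list is short, so absence from it says little about a single region. The strongest member on chromosome 4 scored 157.8 in replicate 1 and its counterpart 99.3 in replicate 2. The counterpart, at 119151529 to 119152029, was centred 22 bp from the TSS of a further transcript, ENSMUST00000079644, and was classed as a promoter. The centres were 409 bp apart, and the same locus was thus at a TTS in one list and at a promoter in the other.

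The other 2 kept their class. On chromosome 10 at 93724941 to 93725577, the region annotated to the TTS of ENSMUST00000180739 scored 44.1. Its counterpart at 93724870 to 93725370 scored 85.1. The centres lay 217 bp downstream of the TSS of ENSMUST00000180375 in replicate 1 and 356 bp in replicate 2. On chromosome 12 at 112615659 to 112616301, the region scored 37.1 and its counterpart at 112615909 to 112616409 scored 99.3. There ENSMUST00000222729 is both the transcript of the TTS annotation and the nearest promoter, with centres 1714 and 1893 bp from its start. Scores in the 2 lists are on different scales. The third TTS region of replicate 2, on chromosome 3 at 87929941 to 87930441 with a score of 92.2, had no region of replicate 1 within 19707 bp.

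TAF4b peaks overlapped 5 of the 295 regions (1.69%, 0.553 to 3.91%), against 10.7% of all regions. All but 1 of the 5 contained a TSS of another transcript. TAF4b was thus found in 4 of the 36 members that contained their nearest TSS (11.1%, 3.11 to 26.1%) and in 0 of the 58 others within 1 kb, which allows a share of up to 5.17% by a limit of 3 counts, or 6.16% by the exact interval. It was found in 1 of 201 beyond 1 kb (0.498%, 0.0126 to 2.74%), against 0.476% of all regions beyond 1 kb. TAF4b overlap and a contained TSS thus coincided in these few members, and no test of the difference was made. The share among all regions that contain their nearest TSS is not given here. The 36 members were also wider than the 58, with median widths of 638.5 and 500 bp. They were nearer the TSS, at medians of 176.5 and 651.5 bp. A part of width or distance in the overlap was not tested.

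The strongest member, on chromosome 4, was the only one with a peak of both TAF4b replicates. Its peak of replicate 1 had a score of 11.2 and lay -17 bp from the TSS of ENSMUST00000079644, and its peak of replicate 2 had a score of 23.3 and lay 32 bp downstream of it. On chromosome 5 at 88912408 to 88913655, a region of score 99.8 held a replicate 2 peak of score 16.2 at 48 bp from the TSS of ENSMUST00000031311. On chromosome 12 at 10440723 to 10441223, a region of score 32.5 overlapped a replicate 2 peak of score 15.2 at -12 bp from ENSMUST00000020947. This peak, at 10440693 to 10440827, crossed the region's edge. On chromosome 16 at 4830956 to 4831456, also with a score of 32.5, the replicate 2 peak scored 25.4 and lay -72 bp from ENSMUST00000201651. This peak, at 4831422 to 4831556, crossed the region's edge and was centred outside it, 283 bp from the region's centre. The TSS that the region contained was that of ENSMUST00000201077. All these peaks were in the promoter class of their own lists.

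The fifth region differed from the others. On chromosome 5 at 113312485 to 113313152, with a score of 51, a TAF4b replicate 1 peak of score 7.7 was itself in the TTS class. It was centred 1177 bp from the start of ENSMUST00000196549, the transcript of its TTS annotation, and replicate 2 had no peak in this region. A TAF4b peak lay within 1 kb without overlap at 2 more members, 36 bp from a region on chromosome 15 (98560054 to 98560801) and 280 bp from one on chromosome 2 (26029608 to 26030242). Both were centred within 1 kb of another transcript's TSS, at 312 and 608 bp. With these 2, 7 of 295 members (2.37%) had a peak within 1 kb, against 12.8% of all regions.

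Within 101 to 1000 bp downstream of a TSS, TAF4b peaks overlapped TTS and intron regions in similar shares. Shares in exon and promoter regions were higher. Distances inside this band were not alike, with medians of 388 bp for TTS, 339 bp for intron, 215 bp for exon and 196 bp for promoter regions. For 0 of the 469 promoter regions was the nearest TSS that of the annotated transcript. A part of distance in the shares was not tested. Among regions centred 101 to 1000 bp downstream of a TSS, TAF4b was present in 4 of 94 TTS regions (4.26%, 1.17 to 10.5%), 29 of 621 intron regions (4.67%, 3.15 to 6.64%), 56 of 489 exon regions (11.5%, 8.77 to 14.6%) and 68 of 469 promoter regions (14.5%, 11.4 to 18.0%). With peaks up to 1 kb away included, the count was 6 of 94 TTS regions (6.38%, 2.38 to 13.4%), and the shares were 13.0% in introns (10.5 to 15.9%), 16.8% in exons and 20.5% at promoters. H3K4me3 replicate 2 overlapped 2 of the 94 (2.13%, 0.259 to 7.48%), against 2.25% of the intron, 2.04% of the exon and 4.69% of the promoter regions. Beyond 1 kb, TAF4b was present in 0.498% of TTS, 0.329% of intron, 1.55% of exon and 0.524% of intergenic regions. The members with a peak were few, and near a TSS the interval for overlap in TTS regions reached into that of exons, though not into that of promoters.

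**Figure D4:**
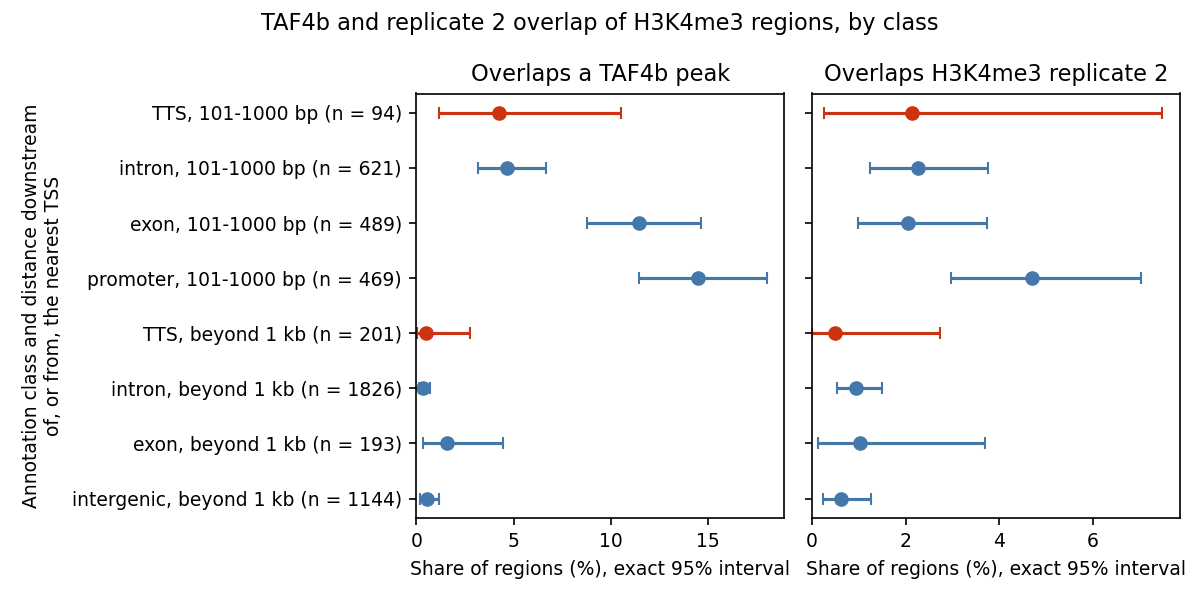
Share of H3K4me3 replicate 1 regions (horizontal axes, %, exact 95% interval) that overlap a TAF4b peak of either replicate (left) or a region of H3K4me3 replicate 2 (right), by annotation class and distance from the nearest TSS (vertical axis). The TTS class at 101 to 1000 bp, at 4.26% and 2.13%, has intervals that contain the intron values of 4.67% and 2.25%.

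Score and width also varied between those classes, though the score intervals of TTS regions overlapped or met those of intron and exon regions. Within 101 to 1000 bp downstream, the median score of the TTS regions was 37.1 (34.8 to 41.8), against 41.8 (39.4 to 41.8) in introns and 44.1 (41.8 to 48.7) in exons. Promoter regions in this band had a median of 48.7 (46.4 to 51), above the TTS interval. Beyond 1 kb the TTS median was instead the highest, at 44.1 (41.8 to 48.7). The median there was 39.4 (39.4 to 41.8) in introns, 39.4 (37.1 to 41.8) in exons and 37.1 between genes. There, 102 of 201 TTS regions had the minimum width (50.7%, 43.6 to 57.9%), against 62.1% (60.5 to 63.8%) of all regions beyond 1 kb. The share in exons beyond 1 kb was 61.1% (53.9 to 68.1%), with an interval that overlaps that of the TTS regions. Within 101 to 1000 bp downstream, the minimum width was instead more frequent in TTS regions, at 63.8% (53.3 to 73.5%). It was held there by 58.1% of intron (54.1 to 62.0%), 47.2% of exon (42.7 to 51.8%) and 43.9% of promoter regions (39.4 to 48.5%). At the same 101 to 1000 bp, 38.3% of the TTS regions contained the nearest TSS (28.5 to 48.9%), with 43.0% in introns and 69.9% in exons (65.7 to 74.0%).

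The TTS regions lay closer to other H3K4me3 regions than exon, intron and intergenic regions did. The median gap to the nearest other region of the list was 37695 bp (32319 to 44512 bp), against 45213 bp (42783 to 47660 bp) for promoter regions, 56511 bp for exons, 60890 bp for introns and 115799 bp between genes. The nearest promoter region was at a median of 66427 bp (50988 to 91608 bp), with 108614 bp for exons, 167273 bp for introns and 302134 bp between genes. The promoter class overlapped the members in its intervals for both gaps, the second being 82676 to 96096 bp. Beyond 1 kb of a TSS, gaps to the nearest other region overlapped between TTS (37695 bp, 31435 to 47818 bp) and exon regions (51964 bp, 35779 to 60966 bp). At 101 to 1000 bp downstream they did not, at 37754 bp (23134 to 48773 bp) and 58327 bp (51609 to 67805 bp).

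Few members had a direct neighbour, and the same held for the list as a whole. Another region lay within 5 kb of 28 of the 295 (9.49%, 6.40 to 13.4%), against 6.84% of all regions, a share inside the members' interval. The nearest region was in the promoter class for 13 of the 28, in introns for 7, between genes for 5, in exons for 2 and at a TTS for 1. Within 2 kb there were 9, the closest being a 1005 bp region on chromosome 15 at 77671073 to 77672078, with an exon region 579 bp away. The remaining members had no other region that close.

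**Figure D5:**
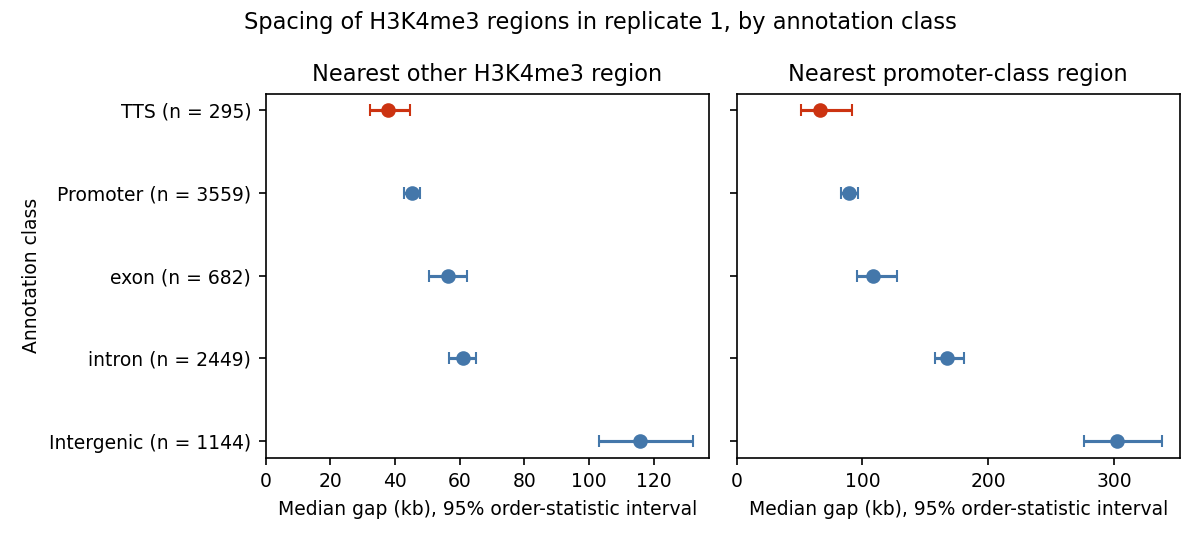
Median gap in kb (horizontal axes, 95% order-statistic interval) from H3K4me3 replicate 1 regions of each annotation class (vertical axis) to the nearest other region of the list (left) and to the nearest promoter-class region (right). The TTS class, at 37695 and 66427 bp, has the lowest median of the 5 classes in both panels.

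Some transcripts that end at these regions also had a called promoter region. A promoter-class region named the same transcript, as its annotation or its nearest promoter, for 10 of 295 members (3.39%, 1.64 to 6.15%), against 3.44% of all regions outside the promoter class and 4.58% of the 3426 among them that name a transcript. An example is ENSMUST00000006071 on chromosome 11. The region annotated to its TTS, at 21943516 to 21944176, had a score of 53.4 and was centred 7769 bp from the transcript's start. The promoter region of this transcript was 7179 bp away. Other transcripts of the same gene were not counted. By annotation alone there were 7 such members.

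Across chromosomes with at least 20 regions, the TTS class took from 2.07% of the regions on chromosome 14 (6 of 290, 0.763 to 4.45%) to 4.92% on chromosome 19 (13 of 264, 2.65 to 8.27%). The intervals of these 2 overlap. Chromosome 11 held the most members, 28 of its 678 regions (4.13%), and the X chromosome held 9 of 234 (3.85%).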

How the data were processed

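Regions of H3K4me3 and peaks of TAF4b were taken from 1 annotated list per library. Peak scores were deposited by the authors with scaling not stated, and the file headers carry HOMER's column names. The TAF4b lists also deposit a focus ratio, a fraction per the file headers, and it entered no result. GRCm39 is the build in the submitters' processing notes, which list HOMER 4.10, Bowtie2 2.3.0, SAMtools 1.9, Trim Galore 0.5.0, FastQC 0.11.5 and bcl2fastq 2.20 without their roles. Whether IgG served as a control for calling is not stated in these sources.

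Members were the rows of class TTS in H3K4me3 replicate 1. Region width was end minus start, and an overlap was at least 1 bp. Distances to a TSS were taken from the region centre: all 1056 transcripts nearest to several features with centres at least 20 bp apart gave 1 TSS position within 3 bp. A region contained a TSS when that distance did not exceed the distance from centre to edge. Gaps ran between region edges. Of 500 transcript identifiers at the members, 0 matched a RefSeq gene table of GRCm38.p6, and no genome sequence of the files' build was used here, so no gene or sequence is given.

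Regions were named by a rule: the 10 highest scores (the tenth tied), the 5 highest beyond 1 kb, all found in replicate 2 or with TAF4b, the 5 widest, the 3 nearest to and farthest from a TSS, and the TTS regions of replicate 2. Others named on chromosomes 2, 11 and 15 were chosen after their values were seen. The members, lists and comparisons were chosen with earlier results of these data known. The overlap and interval functions were tested on simulated data, where 200 planted overlaps among 8129 regions were all found in 20 of 20 runs. The software was SciPy 1.17.1, NumPy 2.4.6 and pandas 2.3.3 under Python 3.11.15, with plots from matplotlib 3.10.9.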

Additional observations from a re-analysis of the deposited data

How the results depend on the processing

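Over 28 alternatives to 8 results, 16 stayed inside the main interval and 12 fell outside it. The share within 1 kb of a TSS, 31.9%, was 18.3% with a window of 500 bp, 51.2% with 2 kb, 41.7% measured from the region edge and 26.1% for regions at or above the list's median score. The first 3 differ by construction, and the cause of the last was not tested. Without H3K4me3 replicate 1 it was 66.7% of 3 regions, and the share with TAF4b was 0% of the same 3. The median width was 680 bp at or above the median score, and the means were 649.4 bp for width and 49.4 for score. TAF4b shares were 1.36% without TAF4b replicate 1, 0.678% without TAF4b replicate 2 and 0.339% for peaks called in both replicates. Another region lay within 2 kb of 3.05% and within 10 kb of 19.3% of the members. Without H3K4me3 replicate 1 the share whose nearest promoter was their own transcript was 33.3%, and the median width 500 bp. No test was made, so the replicate block changes no call: with same-numbered lists alone, 0.671% of TTS regions held a TAF4b peak. Nothing in the labels ties same-numbered libraries to one animal or day. Unknown depth, a short replicate 2 list and few members with TAF4b limit what absence shows.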
